A study of Mus musculus with 24 samples.

Results

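Dorsal forebrain neurogenesis transcription factors were followed in RNA-seq of mouse embryonic forebrain and newborn lens. They were a named list of 9 genes out of the 23947 symbols in the expression table, namely Emx1, Emx2, Neurog1, Neurog2, Eomes, Tbr1, Neurod1, Neurod2 and Neurod6. All 9 were found by symbol. The 3 RNA libraries came from lens fibers at P1 (postnatal day 1), lens epithelium at P1 and whole embryonic forebrain at E12.5, all dissected from CD-1 mice with no mutation or treatment named in the labels. Lens fibers are the elongated, crystallin-filled cells of the lens, and the epithelium is the dividing cell sheet at its front. The rest of the series consists of ChIP-seq for Pax6, RNA polymerase II and 4 histone marks, their inputs, and FAIRE. Those lists are on the build mm9, for which no gene annotation was at hand, and were not analysed here.

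The neurons of the cerebral cortex that use glutamate arise from progenitors in the dorsal telencephalon. Pax6 and the homeobox genes Emx1 and Emx2 mark these progenitors and help to set their regional identity. The proneural basic helix-loop-helix (bHLH) factors Neurog1 and Neurog2 then start neuronal differentiation. The T-box factor Eomes, also called Tbr2, marks the intermediate progenitors that follow, the related Tbr1 marks young neurons of the deep layers, and the NeuroD family factors Neurod1, Neurod2 and Neurod6 act as cells become neurons. Lens and forebrain both depend on Pax6, and the comparison asks how a set of neurogenic factors active with Pax6 in forebrain stands in a tissue that also uses Pax6 and makes no neurons.

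Because the 9 genes were each higher in the forebrain library than in both lens libraries, as set out in the following paragraphs, the DNA before their start sites is shown for 6 of them. These are the member with the highest forebrain level in each family (Emx1, Neurog2, Eomes and Neurod6) and 2 more members, Tbr1 and Neurod2, that hold 3 copies each of the motifs marked in capitals. Each line gives the 250 bases before the annotated start, 5′ to 3′ on the strand of the gene, from RefSeq on GRCm38.p6. Capitals mark every E-box, CANNTG, the core bound by bHLH factors, and every TAATTA, a core bound by homeodomain factors. Emx1 lies at chr6:85187681-85187930 (plus strand), Neurog2 at chr3:127632886-127633135 (plus), Eomes at chr9:118477939-118478188 (plus), Tbr1 at chr2:61804203-61804452 (plus), Neurod2 at chr11:98329646-98329895 (minus) and Neurod6 at chr6:55681264-55681513 (minus).
Emx1: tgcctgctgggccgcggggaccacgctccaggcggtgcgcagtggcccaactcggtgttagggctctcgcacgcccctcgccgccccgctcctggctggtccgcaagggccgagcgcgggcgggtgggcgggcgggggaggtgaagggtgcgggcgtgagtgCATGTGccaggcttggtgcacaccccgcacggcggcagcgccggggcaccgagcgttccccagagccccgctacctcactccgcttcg
Neurog2: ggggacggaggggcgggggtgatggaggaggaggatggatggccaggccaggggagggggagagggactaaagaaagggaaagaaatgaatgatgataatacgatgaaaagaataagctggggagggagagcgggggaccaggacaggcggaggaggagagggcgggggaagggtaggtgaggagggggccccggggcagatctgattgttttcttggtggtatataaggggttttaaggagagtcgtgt
Eomes: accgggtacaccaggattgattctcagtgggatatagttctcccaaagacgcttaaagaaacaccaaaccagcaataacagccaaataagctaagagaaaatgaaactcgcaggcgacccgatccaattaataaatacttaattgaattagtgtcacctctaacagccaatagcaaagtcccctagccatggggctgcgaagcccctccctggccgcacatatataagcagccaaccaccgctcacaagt
Tbr1: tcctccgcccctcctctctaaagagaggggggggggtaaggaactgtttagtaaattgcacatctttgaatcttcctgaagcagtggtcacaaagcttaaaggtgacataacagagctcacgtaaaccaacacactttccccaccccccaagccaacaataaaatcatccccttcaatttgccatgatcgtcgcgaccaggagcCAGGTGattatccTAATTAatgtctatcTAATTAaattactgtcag
Neurod2: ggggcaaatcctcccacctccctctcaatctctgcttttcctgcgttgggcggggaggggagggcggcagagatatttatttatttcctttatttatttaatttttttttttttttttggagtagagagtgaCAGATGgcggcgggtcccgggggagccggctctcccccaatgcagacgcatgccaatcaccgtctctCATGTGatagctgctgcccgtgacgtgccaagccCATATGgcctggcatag
Neurod6: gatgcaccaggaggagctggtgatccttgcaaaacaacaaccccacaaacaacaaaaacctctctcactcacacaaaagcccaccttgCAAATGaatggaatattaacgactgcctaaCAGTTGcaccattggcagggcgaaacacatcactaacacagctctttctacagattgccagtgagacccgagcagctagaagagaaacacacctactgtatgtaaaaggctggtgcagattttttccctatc

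Levels are in RPKM, reads scaled to gene length and to a library total that was not specified, so levels of different genes can be compared per length. Each group held 1 library, so no value has a replicate error and no difference was tested. Differences are given as log2((RPKM + 1)/(RPKM + 1)), which understates those of low genes, and a gene was counted as changed past 4-fold, a log2 ratio of at least 2 in size, provided that 1 library of the pair reached 1 RPKM. Every lens library was newborn and the forebrain library embryonic, and the effect of age and that of tissue cannot be told apart. In whole tissue, fewer cells of a type and less RNA per cell cannot be told apart either. Of all symbols, 40.5% in fibers, 48.6% in epithelium and 47.7% in forebrain had at least 1 RPKM, and 37.6%, 27.5% and 30.7% were listed at 0.

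Defining genes of each labelled tissue were present. All 9 fiber markers, among them Lim2, Crybb1 and Gja3, were at least 4-fold higher in fibers than in forebrain, and all 7 epithelium markers, among them Cdh1, Clu and Pitx3, were at least 4-fold higher in epithelium than in forebrain. These markers did not all set epithelium apart from fibers, since they summed to 698.7 RPKM in fibers and 627.8 RPKM in epithelium and only 3 of the 7 (Foxe3, Cdh1 and Npnt) were 4-fold lower in fibers than in epithelium. Of 11 forebrain markers, 9 of the 10 tested were at least 4-fold lower in fibers and 7 of 11 in epithelium than in forebrain, led in epithelium by Fabp7, Tubb3 and Stmn2. The fiber markers summed to 623256 RPKM in fibers, 1685 in epithelium and 30.9 in forebrain. Six3, chosen from that list after its values were seen, had 0.887 RPKM in fibers, 3.91 in epithelium and 0.563 in forebrain. Markers of other cell types were present in the dissections. The 5 blood markers summed to 5.99 RPKM in fibers, 343.6 in epithelium and 1138 in forebrain, with Hba-a1 and Hbb-b1 the main contributors. The 5 endothelium markers summed to 0.604, 45.9 and 23.6 RPKM, and the 6 mesenchyme markers to 2.80, 57.9 and 79.9 RPKM, in the same order of libraries. Of the mesenchyme sum, Pdgfra alone gave 2.47 RPKM in fibers, 52.9 in epithelium and 2.89 in forebrain, while the other 5 were each lower in both lens libraries than in forebrain, as was Col3a1 with 0.0669, 1.94 and 44.6 RPKM. Their part in the results was not tested.

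All 9 factors had at least 1 RPKM in forebrain and under 1 RPKM in both lens libraries. This held for 853 of the 11413 genes with at least 1 RPKM in forebrain, or 7.47%. The 9 genes summed to 0.221 RPKM in fibers, 1.36 RPKM in epithelium and 219.9 RPKM in forebrain, so the lens sums were 0.10% and 0.621% of the forebrain sum. In fibers 5 of the 9 (Emx1, Emx2, Neurog1, Eomes and Neurod2) were listed at 0, and in epithelium 2 were (Neurog1 and Neurod2). The highest single value in lens was 0.106 RPKM for Neurog2 in fibers and 0.747 RPKM for Neurod1 in epithelium. The lowest value in forebrain was 2.26 RPKM, for Neurog1, so forebrain and lens values did not overlap across the 9 genes.

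**Figure D1:**
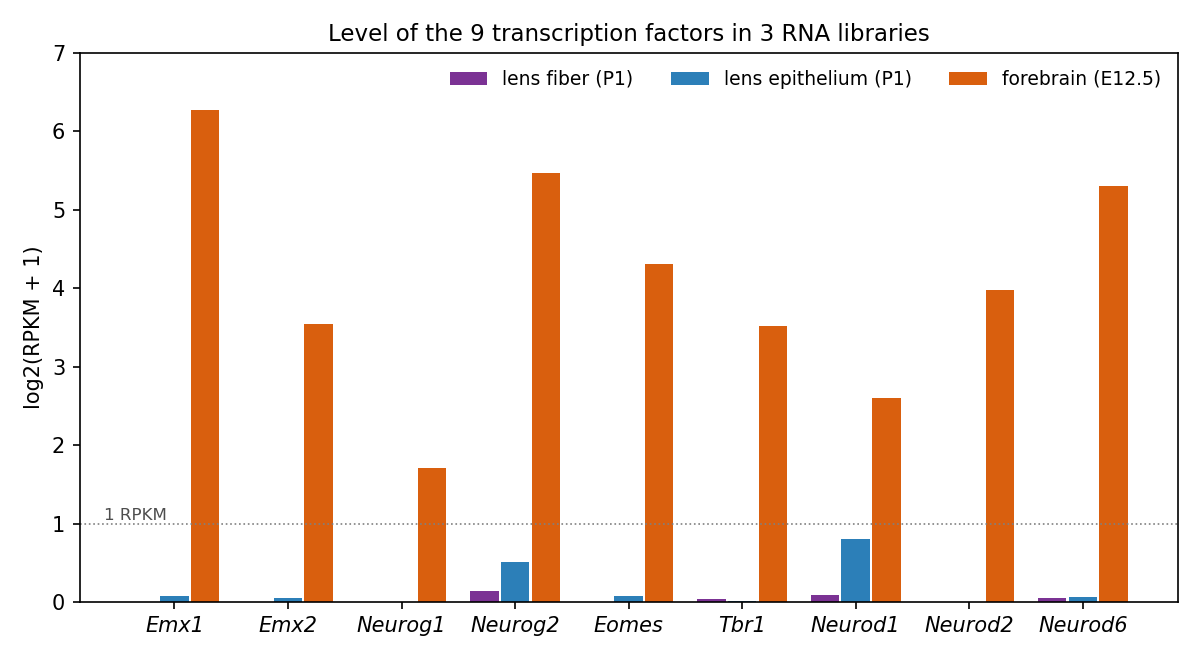
Level of each of the 9 factors as log2(RPKM + 1) in lens fibers, lens epithelium and forebrain, 1 library each, so the bars have no error. The dotted line marks 1 RPKM. No lens bar reaches it, and every forebrain bar passes it.

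The regional homeobox genes differed strongly from each other in forebrain. Emx1 had 0 RPKM in fibers, 0.0496 RPKM in epithelium and 76.0 RPKM in forebrain, where 479 of all genes were higher. It was the highest of the 9 and made up 34.6% of their summed forebrain RPKM. The log2 ratio over forebrain was -6.27 in fibers and -6.20 in epithelium. Emx2, which acts in the same progenitors and is needed for growth of the hippocampal region of the cortex, had 0 RPKM in fibers, 0.0320 in epithelium and 10.7 in forebrain. Its log2 ratios were -3.55 and -3.50. In forebrain Emx1 was thus 7.12 times as high as Emx2 per length, while in lens both were close to or at 0.

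The pair of proneural factors was the most unequal of the families. Neurog2 had 0.106 RPKM in fibers, 0.423 in epithelium and 43.4 in forebrain, the next highest level after Emx1. Fibers gave a log2 ratio over forebrain of -5.33 and epithelium of -4.96. Neurog1 was listed at 0 in both lens libraries and had 2.26 RPKM in forebrain, the lowest level of the 9, with 40.2% of all genes higher. Its log2 ratio was -1.70 in both comparisons, short of 4-fold, as the pseudocount of 1 RPKM limits the ratio of a gene at this level. Neurog2 was 19.2 times as high as Neurog1 in forebrain.

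The T-box genes were closer to each other. Eomes, the marker of intermediate progenitors, had 0 RPKM in fibers, 0.0546 in epithelium and 18.9 in forebrain, with log2 ratios of -4.31 and -4.24. Tbr1, the marker of the early neurons, had 0.0225 RPKM in fibers, 0.0107 in epithelium and 10.4 in forebrain, with log2 ratios of -3.48 and -3.50. Eomes was 1.82 times as high as Tbr1 in forebrain. The forebrain levels of Tbr1 (10.4 RPKM) and Emx2 (10.7 RPKM) were the closest neighbours in the order of the 9, and with 1 library their order cannot be set against a replicate spread.

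Among the NeuroD genes the factor of postmitotic neurons Neurod6 was the highest in forebrain. It had 0.0328 RPKM in fibers, 0.0490 in epithelium and 38.4 in forebrain, with log2 ratios of -5.25 and -5.23, and followed Emx1 and Neurog2 in the order of the 9. Neurod2, which also acts in postmitotic neurons, was listed at 0 in both lens libraries and had 14.8 RPKM in forebrain, a log2 ratio of -3.98 in both comparisons. Neurod1, which acts earlier in differentiation and is also used in retina and endocrine pancreas, had 0.0593 RPKM in fibers, 0.747 in epithelium and 5.05 in forebrain. Neurod6 was 2.59 times as high as Neurod2 and 7.60 times as high as Neurod1 in forebrain. The full forebrain order, high to low, was Emx1, Neurog2, Neurod6, Eomes, Neurod2, Emx2, Tbr1, Neurod1 and Neurog1.

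Neurod1 stood apart from the other members in the epithelium library. Its epithelium level was 14.8% of its forebrain level, against 0.973% for Neurog2 and at most 0.299% for the other 7. The RPKM values of Neurod1 thus differed by more than 4-fold. Its log2 ratio of -1.79 stayed short of 4-fold because of the pseudocount of 1 RPKM. In fibers Neurod1 was at 1.18% of its forebrain level, a log2 ratio of -2.51, against at most 0.244% for the other 8. The 853 genes at 1 RPKM or more in forebrain and under 1 RPKM in both lens libraries had a median epithelium level of 10.8% and a median fiber level of 1.77% of forebrain. Their median forebrain level was 2.19 RPKM, against 14.8 RPKM for the 9 factors, so these percentages are not matched for level.

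Counted past 4-fold, 8 of the 9 factors were lower in fibers than in forebrain (all but Neurog1), where 11.4% of the 12205 genes tested were 4-fold lower and 6.37% 4-fold higher. In epithelium 7 of the 9 were lower than in forebrain (all but Neurog1 and Neurod1), where 3.25% of the 12619 genes tested were 4-fold lower and 4.68% 4-fold higher. All 9 passed the filter of 1 RPKM, each through its forebrain value, and so could only be lower in lens. With no filter the counts were the same by construction. At a pseudocount of 1 RPKM, a gene under 1 RPKM in both libraries cannot reach 4-fold. The median log2 ratio of the 9 was -3.98 in both comparisons, against -0.41 for all genes tested in fibers over forebrain and -0.03 in epithelium over forebrain. The 2 comparisons share the forebrain library and are not independent. With a pseudocount of 5 RPKM in place of 1, both counts dropped to 4 of 9, which left Emx1, Neurog2, Eomes and Neurod6 past 4-fold.

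**Figure D2:**
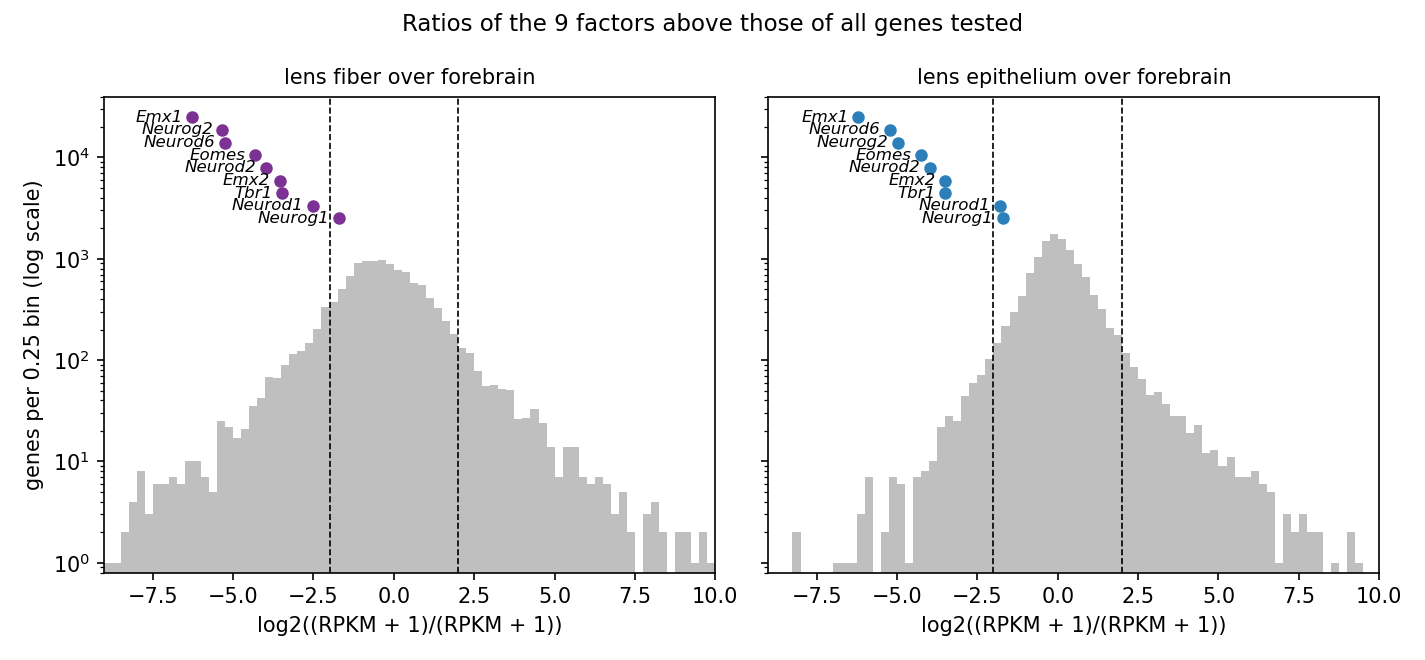
Histograms of log2((RPKM + 1)/(RPKM + 1)) over all genes tested (12205 for lens fiber over forebrain, 12619 for lens epithelium over forebrain), with gene counts on a log axis. Points give the ratios of the 9 factors, stacked above the histogram for legibility only, and dashed lines mark 4-fold. All 9 points lie left of 0, between -6.27 and -1.70.

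Between the lens libraries no comparison was possible at this filter, since none of the 9 had 1 RPKM in fibers or epithelium. Of the 12090 genes tested there, 8.12% were at least 4-fold lower and 3.75% at least 4-fold higher in fibers. Neurod1 had the largest ratio of the 9, -0.72 on the log2 scale for fibers over epithelium, and Neurog2 had -0.36. The other 7 lay between -0.08 and 0.02. These values rest on levels under 1 RPKM, at which the number of reads behind a value is not known.

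Retina markers differed from each other in the epithelium library. Retinal progenitors and photoreceptors use Neurog2, Neurod1 and Neurod4, and a lens dissection can carry retina or ciliary tissue. The 9 retina markers reported here summed to 2.36 RPKM in fibers, 21.2 RPKM in epithelium and 8.32 RPKM in forebrain, where Otx2 made up most of the sum, and 5, 0 and 2 of them were listed at 0. Rax, a homeobox gene of the eye field and retinal progenitors, had 0 RPKM in fibers, 15.8 in epithelium and 0.188 in forebrain. Most of the epithelium sum was thus Rax. Other retina markers were low in epithelium, with Atoh7 at 2.28, Crx at 1.12, Rcvrn at 0.404 and Pou4f2 at 0.0583 RPKM. In fibers Atoh7 had 1.26 RPKM, and Rcvrn had 1.02 RPKM, more than in epithelium. Otx2 had 1.07 RPKM in epithelium and 6.80 in forebrain. Neurod4 itself, an early bHLH factor of retina and brain, had 0 RPKM in fibers, 0.916 in epithelium and 1.16 in forebrain. The part of retina or ciliary cells in the epithelium values of Neurod1 and Neurog2 was not tested.

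**Figure D3:**
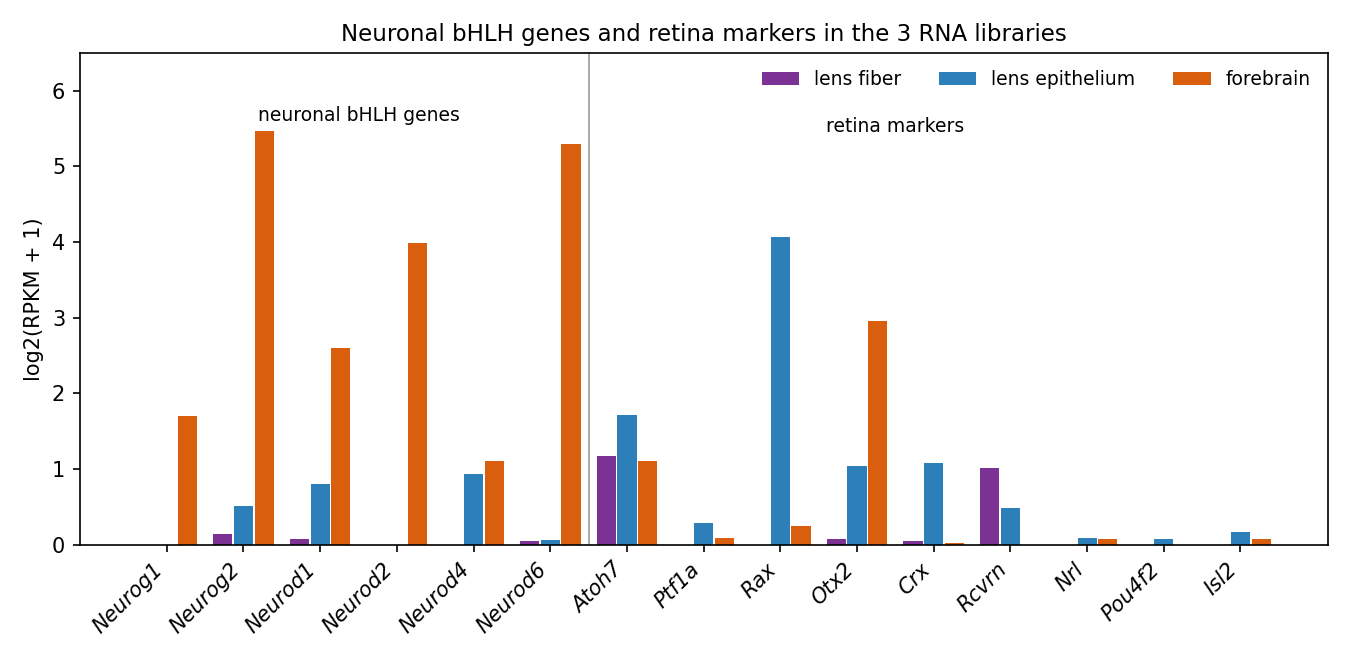
Level of 6 neuronal bHLH genes (left of the line) and 9 retina markers (right) as log2(RPKM + 1) in lens fibers, lens epithelium and forebrain, 1 library each. Rax is high in epithelium alone of the 3 libraries, at 15.8 RPKM, beside Neurod1 at 0.747 and Neurog2 at 0.423 RPKM.

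Other regulators of dorsal telencephalic progenitors were split in lens. Of 11 genes, 8 were at least 4-fold lower in fibers than in forebrain and none 4-fold higher, although 1 was higher when libraries were scaled by the median of ratios. In epithelium 5 were 4-fold lower and 1, Pax6, was 4-fold higher, with 24.0 RPKM in fibers, 141.6 in epithelium and 28.1 in forebrain. Among those lower in epithelium Lhx2, a LIM homeobox selector of cortical identity (0, 9.21 and 70.5 RPKM in fibers, epithelium and forebrain, log2 ratio of epithelium over forebrain -2.81), and Sox3, a progenitor factor (0.413, 0.317 and 7.62 RPKM, -2.71). With a pseudocount of 5 RPKM, 3 were 4-fold lower in fibers and 2 in epithelium. The list's median log2 ratio over the genes tested was -2.61 in fibers and -1.39 in epithelium, between those of the 9 factors and of all genes.

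Regulators of intermediate progenitors and young cortical neurons were mostly lower in lens. Of 16 genes, 15 could be tested against forebrain in each lens library. Of these 14 were at least 4-fold lower in fibers and 13 in epithelium, and none was 4-fold higher. These counts were 3 and 2 at a pseudocount of 5 RPKM. The median ratios were -3.29 and -2.86. The largest ratios in epithelium were those of Sox11, a SoxC factor of differentiating neurons (0.246, 4.29 and 153.3 RPKM, -4.87), Myt1, a zinc-finger factor of differentiating neurons (0.486, 0.666 and 18.1 RPKM, -3.52), and Bcl11b, a zinc-finger factor of deep-layer projection neurons (0.00971, 0.0631 and 10.7 RPKM, -3.46). Values stand in the order fibers, epithelium and forebrain.

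Of 7 markers of early glutamatergic and Cajal-Retzius neurons, 6 could be tested, of which 3 were at least 4-fold lower in fibers and 2 in epithelium, where the count was 1 when libraries were scaled by the median of ratios. None of the 7 was 4-fold lower in either lens library at a pseudocount of 5 RPKM. Slc17a6, the vesicular glutamate transporter VGLUT2, had 0 RPKM in fibers, 0.0345 in epithelium and 11.4 in forebrain, and the calcium-binding protein gene Calb2 had 0.0800, 0.358 and 4.51 RPKM. Reln differed between the lens libraries, with 0.0547, 23.6 and 9.38 RPKM. It was 4-fold lower in fibers, and in epithelium it was higher than in forebrain, short of 4-fold (log2 ratio 1.25). Slc17a7, the transporter VGLUT1, had 0, 0.0146 and 2.98 RPKM. Its log2 ratio of -1.97 in epithelium fell just short of 4-fold only because the pseudocount of 1 RPKM limits the ratio at this level. The ventral counterparts, which specify GABA neurons and other subpallial cells, were 4-fold lower for 8 of the 9 genes tested in fibers and 7 of 9 in epithelium, out of 10 listed. Both counts were 1 at a pseudocount of 5 RPKM. Dlx1 was the highest of them in forebrain, with 0, 0.0707 and 16.5 RPKM, followed by Isl1 with 0.0331, 0.405 and 11.2 RPKM. Dlx6 was listed at 0 in both lens libraries and had 6.19 RPKM in forebrain. The whole-forebrain library thus held ventral as well as dorsal regulators.

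Genes that act with or against the bHLH members were not uniformly low in lens. The E proteins, which pair with Neurog and NeuroD factors to bind DNA, were present in all 3 libraries. Tcf4 had 3.34 RPKM in fibers, 11.5 in epithelium and 40.8 in forebrain, Tcf12 had 5.64, 16.3 and 29.0 RPKM, and Tcf3 had 10.2, 22.2 and 37.5 RPKM. None of the 3 was 4-fold lower in epithelium, and 2 (Tcf4 and Tcf12) were in fibers. The count in fibers was 1 when libraries were scaled by the median of ratios or the pseudocount was 5 RPKM. It was 3 when libraries were scaled to equal sums without crystallins. Of 8 genes downstream of proneural factors, 5 were at least 4-fold lower in fibers and 1 higher, and in epithelium 4 were lower and none higher. The lower counts were 3 in fibers and 2 in epithelium at a pseudocount of 5 RPKM. Rnd2, a small GTPase gene that Neurog2 activates in migrating cortical neurons, had 19.9 RPKM in fibers, 9.70 in epithelium and 74.3 in forebrain. Dll3, a Notch ligand, had 0.152, 0.314 and 7.35 RPKM. Gadd45g, which is linked to cell cycle exit, was 4-fold lower in epithelium and 4-fold higher in fibers, with 225.2 RPKM in fibers, 5.75 in epithelium and 43.6 in forebrain. Its higher count in fibers was lost when libraries were scaled to equal sums without crystallins.

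The inhibitors of proneural factors, HES, HEY and ID proteins, split in lens. Of 8 genes, 4 were 4-fold lower and 2 higher in fibers than in forebrain, and 1 was lower and 2 higher in epithelium, with a median log2 ratio of -1.65 in fibers and 0.35 in epithelium. At a pseudocount of 5 RPKM, 2 were lower in fibers. Id1 had 294.3 RPKM in fibers, 85.9 in epithelium and 15.3 in forebrain and was 4-fold higher in both lens libraries. Id3 was 4-fold higher in epithelium alone, with 24.3, 204.3 and 34.5 RPKM, and Id2 in fibers alone, with 307.4, 28.8 and 21.8 RPKM. Id4 went the other way, with 4.01, 2.40 and 204.7 RPKM, which put epithelium -5.92 from forebrain on the log2 scale. Hes1, Hes5 and Hey2 were also 4-fold lower in fibers, with log2 ratios over forebrain of -2.67, -5.65 and -2.05. None of them was 4-fold lower in epithelium, where their ratios were 0.68, -1.81 and -0.35. ID proteins hold E proteins in pairs that cannot bind DNA.

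**Figure D4:**
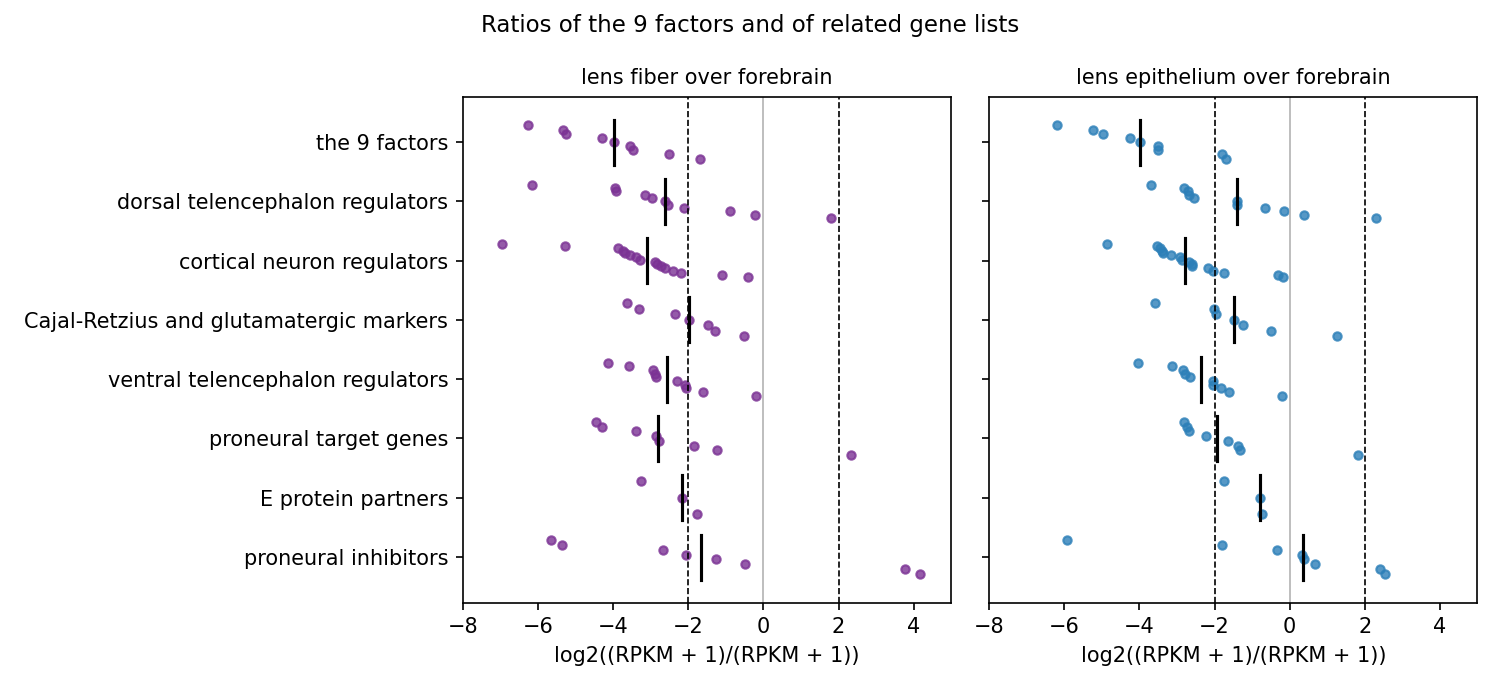
Log2((RPKM + 1)/(RPKM + 1)) of each gene (points) in the 9 factors and 7 related lists, for lens fiber over forebrain and lens epithelium over forebrain, with the median of all genes of each list as a black bar and dashed lines at 4-fold. The 9 factors have the lowest medians, -3.98 in both panels, while the proneural inhibitors lie on both sides of 0 in both panels.

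The genes outside the list whose profile over the 3 libraries was most like that of the 9 factors were found by the Euclidean distance of log2(RPKM + 1) to the mean profile of the 9, which was 0.03 in fibers, 0.18 in epithelium and 4.08 in forebrain. Among 7222 genes with at least 5 RPKM in forebrain, the nearest were Ncan, a proteoglycan of the nervous system (0 RPKM in fibers, 0.106 in epithelium and 16.9 in forebrain, distance 0.10), Dlx1 (distance 0.10) and Elavl3, a neuronal RNA-binding protein (0.0392, 0.162 and 14.7 RPKM, distance 0.12). Next among those reported were AI854517, Lum, Pou3f4, Ina, Cadps and Nrn1, at distances of 0.15 to 0.31. With a pseudocount of 0.1 RPKM, 5 of the 10 nearest were still among the 10 nearest. These genes also had values near 0 in both lens libraries, and small differences there entered their order together with the forebrain level.

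The promoters of the 9 factors shared no motif of those searched, which is a description of letters only. Each gene had 1 promoter of 300 bases in the RefSeq table (250 before the start and 50 after it), and each motif was sought on both strands. The E-box CANNTG lay in 6 of the 9, against 72.3% of all 32851 promoters of this length. In the printed stretch of Neurod2 it lay 118, 51 and 17 bases before the start (CAGATG in the first case), and in that of Neurod6 162 and 132 bases before it. Emx1 had CATGTG 88 bases and Tbr1 CAGGTG 46 bases before the start. The NeuroD-type E-box CAGATG lay in 1 promoter, that of Neurod2, against 17.2% of all, and CAGCTG in none, against 16.3%. TAATTA lay in 3 (Emx2, Neurog1 and Tbr1), against 5.29% of all, and Tbr1 held 2 copies, 33 and 18 bases before the start. No E-box or TAATTA lay before the start of Neurog2 or Eomes.

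Other motifs were also at single promoters. The short T-box site TCACAC lay in the promoter of Neurod6, against 14.5% of all promoters, and the Notch-type site TGGGAA in that of Emx2, against 25.6%. TATAAA lay in none of the 9, against 13.6%. The promoters also differed in base composition. Emx1 held 37 CG dinucleotides in 300 bases, Neurog1 32, Emx2 26, Neurod1 26 and Neurod2 16, against a median of 7 over all promoters. Neurog2 and Eomes held 10, Tbr1 7 and Neurod6 3. Both CG-rich and CG-poor promoters therefore occurred among the factors with the highest forebrain levels, with Emx1 at 76.0 RPKM and Neurod6 at 38.4 RPKM.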

How the data were processed

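RNA was measured in 3 libraries, 1 each of lens fibers, lens epithelium and forebrain, prepared per the labels' protocols with the dUTP strand-specific method on total RNA. The authors deposited RPKM values per gene symbol. The submitters' processing notes list mm9, Cuffdiff, Cufflinks (version 2) and TopHat2 (version 2), without roles. Which annotation was used, how multiply mapped reads were treated and which total set the scale were not stated. Library depth is not given either. Among 642 genes above 0 and under 0.1 RPKM in both epithelium and forebrain, 22.0% had a ratio within a log2 window of 0.2 around 0.663, as if 1 read were worth less in epithelium. No such step was clear for fibers (fullest windows 9.28% and 8.97%), and read numbers per gene were not derived.

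Ratios used a pseudocount of 1 RPKM and a filter of 1 RPKM in either library (Python 3.11.15, pandas 2.3.3, numpy 2.4.6). The procedure was run on a copy of the forebrain values with 200 planted genes, changed 8-fold. No noise was added and no low genes were planted, so this checked the arithmetic only. Members and lists were chosen with earlier results of these data known. In each list, the 3 genes with the largest epithelium over forebrain ratio and every gene at least 4-fold higher in a lens library are named, except a few that are not reported here. Protein identity between members and chromatin at their start sites were planned and not analysed here, for want of protein sequences and an mm9 annotation. Alternatives were pseudocounts of 0.1 and 5 RPKM, no filter, 2-fold, and scaling by the median of ratios, by equal sums without crystallins and, chosen after seeing the data, by equal sums of protein-coding genes without crystallins.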

Additional observations from a re-analysis of the deposited data

How the results depend on the processing

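All 9 factors were lower in both lens libraries than in forebrain under each pseudocount and scaling tried, a direction that these settings could not change. A pseudocount leaves the sign of a ratio as it is. The scalings multiplied the libraries by 0.816 to 1.20, too little to reverse any of these differences. Under the 3 scalings the counts past 4-fold stayed at 7 in epithelium and 8 in fibers. With a pseudocount of 5 RPKM they were 4 and 4. Counts over all genes moved more. With a pseudocount of 0.1 RPKM, 865 genes were 4-fold lower and 1112 higher in epithelium than forebrain, 2661 lower in fibers than forebrain and 2191 lower in fibers than epithelium. With 5 RPKM the counts were 137 lower and 259 higher in epithelium than forebrain, 404 and 419 in fibers than forebrain, and 267 and 271 in fibers than epithelium. At 2-fold they were 1503 and 1731, 3860 and 1942, and 3419 and 1374 in the same order. With equal sums of protein-coding genes without crystallins, 1481 genes were lower in fibers than epithelium, where the median ratio of the 8779 genes with at least 1 RPKM in all 3 libraries was -0.64, against -0.22 as deposited. In fibers over forebrain that median was -0.20 as deposited and -0.56 with equal sums of all genes without crystallins, so fiber ratios carry a shift of this size. Neurod1 passed 4-fold in epithelium with a pseudocount of 0.1 RPKM (-2.60) and Neurog1 in both lens libraries (-4.56). Values under 1 RPKM limit every comparison within lens. No paired analysis was possible because each RNA group holds 1 library. The cause of these shifts was not tested.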

Other observations

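A few genes of the related lists, chosen after their values were seen, had lens levels near or above those in forebrain. Dmrta2, a doublesex-type factor of dorsal telencephalic progenitors, had 15.6 RPKM in fibers, 39.0 in epithelium and 29.6 in forebrain. Sox1, a SoxB1 factor used in both neural progenitors and lens fibers, had 48.5 RPKM in fibers, 11.6 in epithelium and 13.1 in forebrain. Reln, the secreted protein of Cajal-Retzius neurons, had 0.0547 RPKM in fibers, 23.6 in epithelium and 9.38 in forebrain, while Trp73 and Lhx5, other Cajal-Retzius genes, were at 0 and 0 RPKM in fibers, 0.0177 and 0 in epithelium and 1.42 and 1.78 in forebrain. Btg2, an antiproliferative gene of neurogenic progenitors, had 7.77, 71.5 and 19.7 RPKM in fibers, epithelium and forebrain.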
